A study of Homo sapiens with 6 samples.

Results

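The Fanconi anaemia and homologous recombination genes repair DNA crosslinks and broken chromosomes, and 29 of them were followed here by symbol in a read count table of 23250 genes. All 29 were in the table, and all 29 were among the 12406 genes with enough reads to be tested. The cells were OCI-LY1, an established human diffuse large B-cell lymphoma line, and all 6 samples had been transfected with siRNA against BCL6. BCL6 is the transcriptional repressor of germinal centre B cells. In 3 samples a BCL6 with a mutated RD2 domain, one of its repression domains, was then expressed (the mutant rescue), and in the other 3 wild-type BCL6 was expressed (the wild-type rescue). No sample without siRNA or without a rescue was among the 6, so each difference is between the mutant and the wild-type rescue. How the RD2 sequence was changed and when the RNA was taken are not in the labels. The labels do not say that the 3 samples of a group came from separate cultures, so a p-value here speaks for the spread among these samples alone, and that spread may be technical.

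In the Fanconi pathway, a core complex that includes FANCA, FANCB, FANCC, FANCE, FANCF, FANCG, FANCL and FANCM recognises a DNA interstrand crosslink and attaches ubiquitin to the FANCD2 and FANCI pair, which recruits nucleases. Homologous recombination then copies the missing stretch from an intact sister chromatid: the MRE11A, RAD50 and NBN complex and RBBP8 resect the broken end, BRCA1, PALB2 and BRCA2 prepare the resected strand for its search of the sister, and the BLM and MUS81 enzymes take apart the joined molecules. Most of these genes are used mainly in dividing cells, after DNA replication has begun. Germinal centre B cells divide fast and cut their own immunoglobulin genes, and lymphomas such as this line derive from them.

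Libraries held 26298456 to 26966183 counted reads in the mutant rescue and 26477404 to 27574867 in the wild-type rescue. BCL6 itself had 14166, 13726 and 13827 reads in mutant rescue libraries 1, 2 and 3, against 19069, 16998 and 18789 in wild-type rescue libraries 1, 2 and 3. Its level was 1.31-fold lower in the mutant rescue (log2 fold change -0.38, adjusted p = 7.9e-10 by edgeR's quasi-likelihood test with Benjamini-Hochberg adjustment, which gives every adjusted p here). These reads can come from the expressed construct or from the cell's own gene. The effect of the mutation and that of the BCL6 amount cannot be told apart. All 8 B-cell markers were detected, while of 6 T-cell markers CD3E and CD2 were at 0 in every library and CD3D, CD3G and CD5 had at most 5 reads. The sixth, the kinase LCK, had 2084, 2182 and 2034 reads in the mutant rescue, against 2760, 2518 and 2749 in the wild-type rescue. Summed myeloid markers were at 14 to 22 reads in the mutant rescue and 3 to 8 reads in the wild-type rescue. Nearly all reads of the stromal and epithelial markers came from EPCAM, with 93, 109 and 96 reads in the mutant rescue and 432, 437 and 423 in the wild-type rescue. The part of these lists in the results below was not tested. In RNA from whole cultures, fewer cells of a kind and less RNA per cell cannot be told apart.

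The 29 genes did not move as a block. Of them, 14 were higher in the mutant rescue, 12 were lower and 3 (FANCF, BRCA2 and RBBP8) did not pass an adjusted p of 0.05. Across all tested genes 70.1% passed, with 35.4% higher and 34.8% lower, so a call alone does not set these genes apart. Libraries of one group were very alike in this series, and small differences passed. The median log2 fold change was 0.09 over the 29 genes and 0.01 over all tested genes, and the median absolute log2 fold change was 0.21 against 0.28. The log2 fold changes ran from -0.45 for FANCA to 0.93 for RAD54L. A single member, RAD54L, differed by more than 1.5-fold, as did 22.1% of all tested genes, and no member by more than 2-fold, against 8.76% of all tested genes.

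Tested against a minimum change of 1.2-fold, 5 members passed: RAD54L, RAD52 and FANCC were higher, and FANCA and XRCC2 were lower. Of all tested genes 37.0% passed that test. The mutant and wild-type libraries did not overlap in 26 of the 29 members, 14 of them higher and 12 lower, and NBN, RBBP8 and BLM overlapped. Over all tested genes 72.4% did not overlap. Summed over the 29 members, normalised levels (CPM, read counts divided by the library's size after edgeR's TMM scaling) were 2866, 2900 and 2841 in mutant rescue libraries 1, 2 and 3, against 2786, 2793 and 2787 in wild-type rescue libraries 1, 2 and 3.

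**Figure D1:**
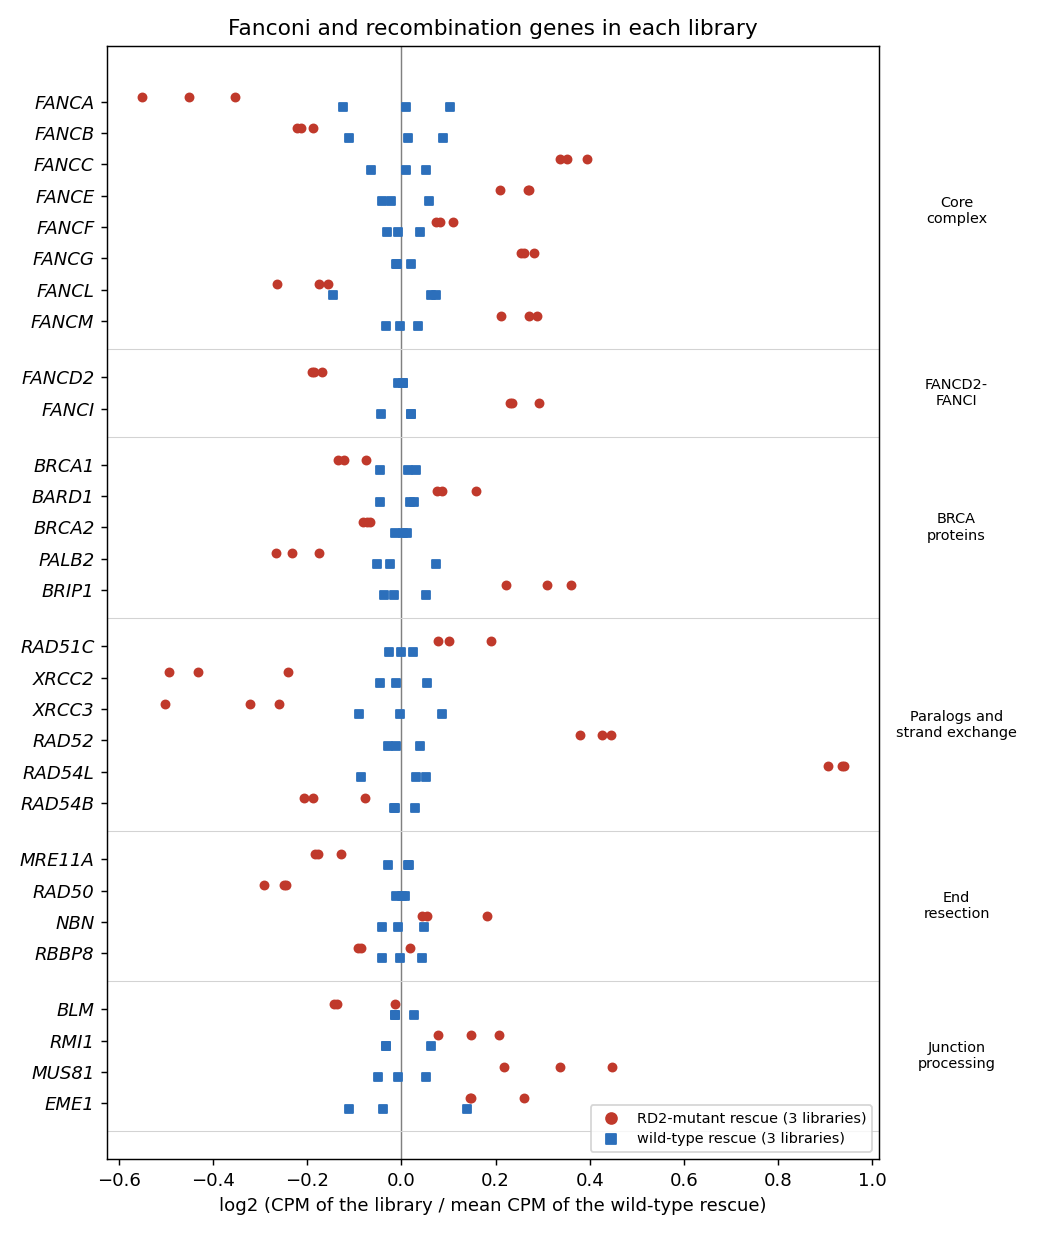
Each of the 29 genes in each of the 6 libraries, as the log2 of the library's CPM over the gene's mean CPM in the wild-type rescue, with circles for mutant rescue libraries above squares for wild-type rescue libraries and genes grouped by role. Circles and squares separate most widely for RAD54L and mix for NBN, RBBP8 and BLM, and genes on either side of 0 are found within every role.

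**Figure D2:**
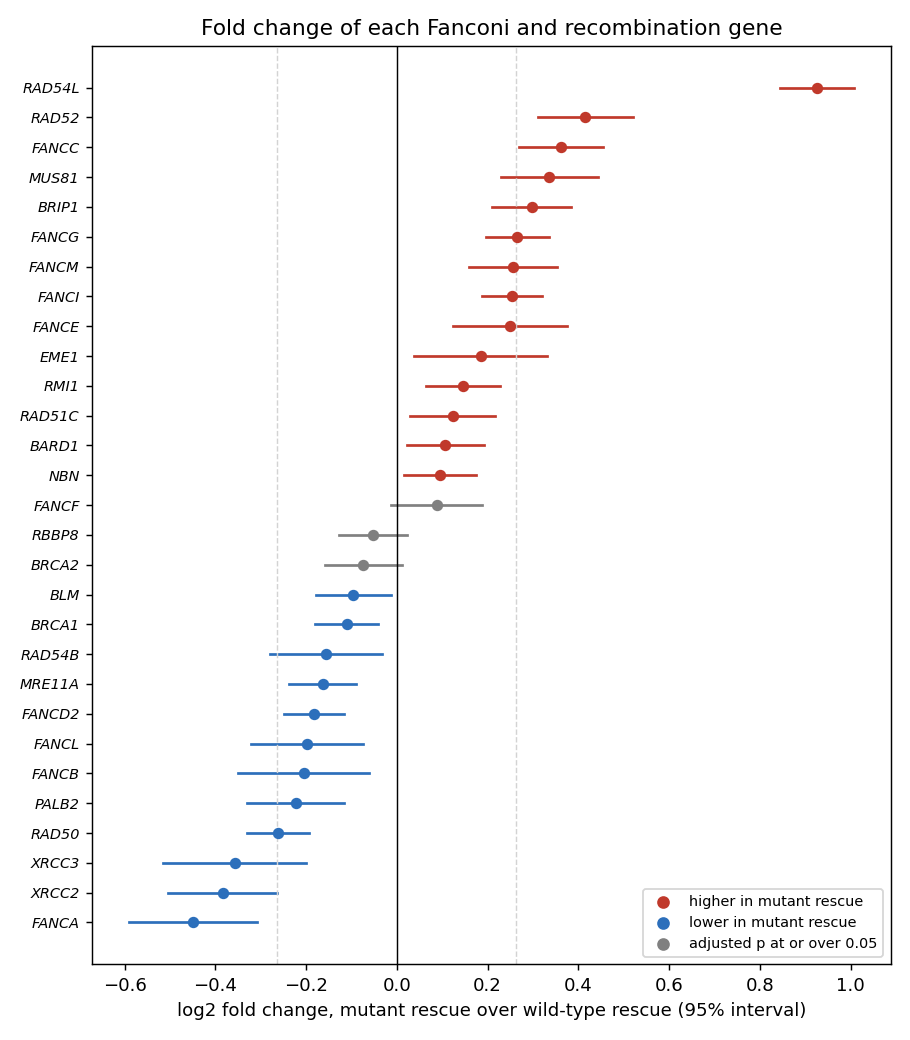
Log2 fold change of each member, mutant over wild-type rescue, from the largest rise at the top to the largest fall at the bottom, with 95% confidence intervals, colours for called higher, called lower and not called, and dashed lines at a 1.2-fold change. RAD54L stands alone at 0.93, and the others lie between -0.45 and 0.42.

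Start regions are shown for 4 members because they hold a match to an E2F-type or a BCL6-type word, the factors that a reader would look for first in S-phase genes and in cells with altered BCL6. The sequences are RefSeq's, on GRCh38.p14, each from 250 bases before to 50 after the annotated start, read 5′ to 3′ on the gene's own strand. Capitals mark the matches: E2F type (TTTCCCGC, TTTGGCGC, TTTCGCGC or TTTGCCGC), CCAAT, and a loose BCL6-type word (TTCNNNGAA), each searched on both strands. FANCA lies at chr16:89816598-89816897 on the minus strand, FANCM at chr14:45135680-45135979 on the plus strand, FANCD2 at chr3:10026187-10026486 on the plus strand and XRCC2 at chr7:152676092-152676391 on the minus strand.
FANCA: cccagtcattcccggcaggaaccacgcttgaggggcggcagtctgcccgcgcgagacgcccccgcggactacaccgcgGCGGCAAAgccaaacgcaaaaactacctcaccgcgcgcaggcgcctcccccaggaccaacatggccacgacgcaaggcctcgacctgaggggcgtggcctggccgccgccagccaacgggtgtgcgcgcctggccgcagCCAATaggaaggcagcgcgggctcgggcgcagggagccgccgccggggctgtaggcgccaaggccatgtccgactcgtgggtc
FANCM: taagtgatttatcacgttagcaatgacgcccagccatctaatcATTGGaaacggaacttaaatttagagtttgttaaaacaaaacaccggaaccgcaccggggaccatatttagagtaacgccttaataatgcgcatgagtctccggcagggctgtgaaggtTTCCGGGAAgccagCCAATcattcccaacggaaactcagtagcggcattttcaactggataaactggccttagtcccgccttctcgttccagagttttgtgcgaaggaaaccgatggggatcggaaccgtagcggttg
FANCD2: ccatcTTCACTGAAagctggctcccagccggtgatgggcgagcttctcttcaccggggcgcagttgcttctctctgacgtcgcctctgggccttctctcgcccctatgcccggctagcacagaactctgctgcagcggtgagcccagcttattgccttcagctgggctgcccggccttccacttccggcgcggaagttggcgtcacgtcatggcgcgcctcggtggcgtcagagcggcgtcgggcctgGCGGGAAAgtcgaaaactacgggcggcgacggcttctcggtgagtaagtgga
XRCC2: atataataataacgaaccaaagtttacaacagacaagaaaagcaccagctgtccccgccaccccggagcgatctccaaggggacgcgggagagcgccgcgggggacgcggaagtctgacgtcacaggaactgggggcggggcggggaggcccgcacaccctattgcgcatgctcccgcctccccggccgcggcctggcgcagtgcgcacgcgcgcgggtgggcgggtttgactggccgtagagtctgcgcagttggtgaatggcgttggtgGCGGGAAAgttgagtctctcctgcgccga

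FANCA held the E2F-type word as GCGGCAAA 172 bases before its start and CCAAT 33 bases before it. FANCD2 held GCGGGAAA at 2 bases before its start and the BCL6-type word as TTCACTGAA at 245 bases before it. XRCC2 held GCGGGAAA 22 bases after its start. FANCM held TTCCGGGAA at 88 bases before its start, with CCAAT at 74 bases before it and its complement ATTGG at 207 bases before it. Start regions were in the RefSeq table for 19 of the 29 members. An E2F-type word was in 3 of these 19 (15.8%) and in 3.31% of all 35116 start regions of the same length. CCAAT was in 9 of the 19 (47.4%) and in 34.6% of all. The cell-cycle word TTTGAA was in 1 of the 19, BRIP1 (5.26%), and in 15.2% of all. The loose BCL6-type word was in 2 of the 19 (10.5%) and in 7.66% of all, and its stricter case TTCCTAGAA was in 0 of the 19 and in 0.373% of all. The median GC content was 64.3% in the 19 regions and 58.7% in all. A match describes these letters only.

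Within the core complex, 4 of 8 genes were higher in the mutant rescue (FANCC, FANCE, FANCG and FANCM), 3 were lower (FANCA, FANCB and FANCL) and FANCF was not called. The median log2 fold change over the 8 was 0.17. FANCA, a scaffold of the complex and the gene most often mutated in Fanconi anaemia, had 98.2, 85.6 and 91.7 CPM in mutant rescue libraries 1, 2 and 3, against 134.7, 115.1 and 126.3 CPM in wild-type rescue libraries 1, 2 and 3. Every mutant library was below every wild-type library, and library 2 was the lowest in both groups. The level was 1.37-fold lower (log2 fold change -0.45, SE 0.063, adjusted p = 0.000103), the largest fall among the members.

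FANCG, which binds FANCA directly, went the other way. It had 130.1, 132.7 and 130.7 CPM in the mutant rescue, against 110.6, 108.4 and 108.3 CPM in the wild-type rescue. The levels in each group lay within a few CPM of each other and the groups stood apart, at a fold of 1.202 (log2 0.27, SE 0.033, adjusted p = 4.53e-07). FANCC, which bridges FANCE to the rest of the complex, had 54.8, 57.0 and 55.3 CPM in the mutant rescue, against 41.4, 44.9 and 43.6 CPM in the wild-type rescue. It was the most raised of the 8 core complex members, at 1.29-fold (log2 0.36, SE 0.045, adjusted p = 3.71e-07).

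FANCE, the subunit that contacts FANCD2, had 21.5, 20.6 and 21.5 CPM in the mutant rescue, against 17.6, 18.6 and 17.4 CPM in the wild-type rescue, and was 1.19-fold higher (adjusted p = 0.000997). FANCM, the translocase that brings the complex to the blocked fork, had 42.4, 42.9 and 40.7 CPM in the mutant rescue, against 34.4, 36.0 and 35.1 CPM in the wild-type rescue, and was 1.195-fold higher (adjusted p = 5.02e-05). Both were above every wild-type library in all 3 mutant libraries. FANCF, an adaptor of the complex, averaged 34.3 ± 0.446 CPM in the mutant rescue and 32.2 ± 0.798 CPM in the wild-type rescue (SD, n = 3 each), with a log2 fold change of 0.09 and a 95% confidence interval from -0.01 to 0.19 (adjusted p = 0.108).

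At the catalytic end of the complex, FANCL and FANCB were both lower, by small folds. FANCL, its ubiquitin ligase, had 30.0, 29.6 and 27.8 CPM in the mutant rescue, against 34.9, 30.2 and 35.1 CPM in the wild-type rescue, 1.15-fold lower (adjusted p = 0.00533). Wild-type rescue library 2 lay close to the mutant libraries, and wild-type rescue libraries 1 and 3 lay well above them. The adjusted p of FANCL ran from 0.000573 to 0.0498 with each library left out, so it passed narrowly in places. FANCB, which dimerises the FANCL module, had 14.9, 14.5 and 14.6 CPM in the mutant rescue, against 17.1, 18.0 and 15.7 CPM in the wild-type rescue, also 1.15-fold lower (adjusted p = 0.0117). With each library left out in turn its adjusted p ran from 0.00759 to 0.0811, and it missed the threshold without wild-type rescue library 2. The FANCA to FANCG ratio of read counts was 0.755, 0.645 and 0.702 in the mutant rescue, against 1.22, 1.06 and 1.17 in the wild-type rescue, a change of -39.02% in the mean. This was the largest shift among the 8 partner ratios computed.

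FANCD2 and FANCI, the paired substrates of the core complex, moved apart. FANCD2 had 134.6, 136.2 and 134.2 CPM in the mutant rescue, against 153.5, 152.4 and 153.5 CPM in the wild-type rescue. It was 1.13-fold lower (log2 fold change -0.18, SE 0.032, adjusted p = 3.59e-05), a small difference between libraries that were nearly equal within each group. FANCI had 380.5, 397.4 and 381.8 CPM in the mutant rescue, against 314.9, 329.2 and 329 CPM in the wild-type rescue, and was 1.19-fold higher (log2 fold change 0.25, SE 0.032, adjusted p = 4.55e-07).

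The ratio of FANCD2 to FANCI reads was 0.354, 0.343 and 0.352 in the mutant rescue, against 0.488, 0.463 and 0.467 in the wild-type rescue. The groups did not overlap and the mean ratio changed by -26.1% (exact two-sided permutation p = 0.1, the smallest that 3 libraries against 3 allow; 0.1143 after Benjamini-Hochberg adjustment over the 8 ratios). FANCD2 has pseudogene copies in the genome, and reads shared with them could be counted to either, so its level is uncertain to that extent.

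Around BRCA1 and BRCA2 the differences were small, with 2 of 5 genes higher (BARD1 and BRIP1), 2 lower (BRCA1 and PALB2) and BRCA2 not called. BRCA1, which promotes resection and recruits PALB2, had 210.5, 203.8 and 201.8 CPM in the mutant rescue, against 214.9, 226.5 and 223.8 CPM in the wild-type rescue. The groups were separate but close, 1.08-fold apart (log2 fold change -0.11, SE 0.033, adjusted p = 0.00557). BRCA1 also has a pseudogene copy with which reads could be shared.

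BARD1, the obligate partner of BRCA1 in its ubiquitin ligase, had 71.6, 75.8 and 72.1 CPM in the mutant rescue, against 69.2, 68.8 and 65.9 CPM in the wild-type rescue, 1.08-fold higher (adjusted p = 0.0236). Its adjusted p ran from 0.0218 to 0.0981 with each library left out, and it missed the threshold without wild-type rescue library 3 and without mutant rescue library 2. The BRCA1 to BARD1 ratio of reads was 2.94, 2.69 and 2.80 in the mutant rescue, against 3.11, 3.29 and 3.40 in the wild-type rescue, without overlap.

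BRIP1, a helicase that binds BRCA1, differed most in this set. It had 87.0, 95.8 and 92.4 CPM in the mutant rescue, against 72.7, 73.9 and 77.4 CPM in the wild-type rescue, 1.23-fold higher (log2 0.30, SE 0.042, adjusted p = 2.19e-06). PALB2, the link between BRCA1 and BRCA2, had 29.3, 31.2 and 30.0 CPM in the mutant rescue, against 34.0, 37.0 and 34.6 CPM in the wild-type rescue, 1.17-fold lower (adjusted p = 0.00064). BRCA2, the mediator that acts on resected single strands, averaged 51.5 ± 0.284 CPM in the mutant rescue and 54.2 ± 0.469 CPM in the wild-type rescue (SD, n = 3 each). The mutant libraries were all below the wild-type libraries, but the log2 fold change of -0.07 had a 95% confidence interval from -0.16 to 0.01 (adjusted p = 0.111).

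The widest spread of fold changes was among the paralog and strand exchange genes, with 3 of 6 genes higher (RAD54L, RAD52 and RAD51C) and 3 lower (XRCC2, XRCC3 and RAD54B). RAD54L, the motor protein that drives strand invasion of the intact duplex, had 3587, 3680 and 3636 reads in mutant rescue libraries 1, 2 and 3, against 2000, 1758 and 2018 in wild-type rescue libraries 1, 2 and 3. In CPM these were 133.9, 137.1 and 136.6 in the mutant rescue, against 73.0, 67.3 and 74.0 in the wild-type rescue. The lowest mutant library was far above the highest wild-type library, and the fold was 1.90 (log2 fold change 0.93, SE 0.039, 95% confidence interval 0.84 to 1.01, adjusted p = 1.38e-14). Among all tested genes, 830 had a larger increase.

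RAD52, which anneals single strands, had 35.2, 34.1 and 35.7 CPM in the mutant rescue, against 26.9, 25.99 and 25.7 CPM in the wild-type rescue. The groups stood well apart, at 1.33-fold (log2 0.42, SE 0.050, adjusted p = 2.38e-07). RAD51C, a member of both complexes that hold XRCC2 or XRCC3, had 49.0, 53.0 and 49.8 CPM in the mutant rescue, against 47.3, 45.6 and 46.4 CPM in the wild-type rescue, 1.09-fold higher (adjusted p = 0.0188). With each library left out its adjusted p ran from 0.0134 to 0.0713, and it missed the threshold without mutant rescue library 2.

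The paralogs XRCC2 and XRCC3, which sit in different complexes, were both lower. XRCC2 had 35.1, 29.5 and 30.7 CPM in the mutant rescue, against 43.1, 41.2 and 40.2 CPM in the wild-type rescue, 1.31-fold lower (log2 fold change -0.38, SE 0.058, adjusted p = 5.77e-06). XRCC3 had 156.6, 132.5 and 150.2 CPM in the mutant rescue, against 199.2, 176.2 and 187.3 CPM in the wild-type rescue, 1.28-fold lower (log2 fold change -0.36, SE 0.068, adjusted p = 0.00173). In XRCC3, as in FANCA, library 2 was the lowest in both groups. RAD54B, the relative of RAD54L, did not follow it, with 19.5, 21.0 and 19.2 CPM in the mutant rescue, against 22.6, 21.9 and 21.9 CPM in the wild-type rescue. It was 1.11-fold lower (adjusted p = 0.0241). Its adjusted p ran from 0.00544 to 0.0937 with each library left out. It missed the threshold without wild-type rescue library 1 or mutant rescue library 1 or 3, and passed only narrowly without wild-type rescue library 3.

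In end resection, RAD50 and MRE11A were lower, NBN was higher and RBBP8 was not called. RAD50, the tethering ATPase of the complex, had 125, 125.2 and 121.2 CPM in the mutant rescue, against 147.3, 149.3 and 148.7 CPM in the wild-type rescue, 1.199-fold lower (log2 fold change -0.26, SE 0.033, adjusted p = 4.54e-07). MRE11A, its nuclease, had 96.7, 100.1 and 96.4 CPM in the mutant rescue, against 110.6, 110.4 and 107.3 CPM in the wild-type rescue, 1.12-fold lower (adjusted p = 0.000344). Both fell clear of the wild-type range. NBN, the regulatory subunit of the same complex, had 204.4, 225.1 and 206.1 CPM in the mutant rescue, against 192.8, 205.1 and 197.3 CPM in the wild-type rescue. The groups overlapped, since mutant rescue library 1 lay below wild-type rescue library 2, and the difference was 1.07-fold (adjusted p = 0.0329). The adjusted p ran from 0.0111 to 0.136 with each library left out, missing the threshold without wild-type rescue library 1 or 3 or mutant rescue library 2.

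The NBN to RAD50 ratio of reads was 1.64, 1.797 and 1.70 in the mutant rescue, against 1.31, 1.37 and 1.33 in the wild-type rescue, a change of 28.1% in the mean. The MRE11A to RAD50 ratio was 0.774, 0.799 and 0.795 in the mutant rescue, against 0.751, 0.740 and 0.721 in the wild-type rescue, a change of 7.06% in the mean. RBBP8, also called CtIP, the cofactor that starts resection, had 227, 245 and 227.9 CPM in the mutant rescue, against 235.2, 249.4 and 241.5 CPM in the wild-type rescue. The groups overlapped, and the log2 fold change of -0.05 had a 95% confidence interval from -0.13 to 0.02 (adjusted p = 0.193). Its adjusted p ran from 0.0047 to 0.556 with each library left out, and it passed, lower, without mutant rescue library 2.

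Of the genes that take joined molecules apart, MUS81, EME1 and RMI1 were higher and BLM was lower. MUS81, the catalytic subunit of a structure-specific nuclease, had 151.3, 129 and 140.1 CPM in the mutant rescue, against 115.1, 107.3 and 110.5 CPM in the wild-type rescue, 1.26-fold higher (log2 fold change 0.34, SE 0.050, adjusted p = 2.44e-05). The mutant libraries spread more widely than the wild-type ones and all lay above them. EME1, its partner, had 20.6, 19.1 and 19.1 CPM in the mutant rescue, against 18.97, 16.8 and 15.96 CPM in the wild-type rescue, 1.14-fold higher (adjusted p = 0.0238). With each library left out its adjusted p ran from 0.00549 to 0.135, missing the threshold without wild-type rescue library 2 or 3 or mutant rescue library 1.

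RMI1, a scaffold of the BLM dissolvasome, had 132.3, 144.7 and 139 CPM in the mutant rescue, against 122.6, 131 and 122.5 CPM in the wild-type rescue, 1.11-fold higher (adjusted p = 0.00242). BLM, the helicase of the same complex, had 88.3, 96.2 and 88.0 CPM in the mutant rescue, against 96.2, 98.9 and 96.1 CPM in the wild-type rescue. Mutant rescue library 2 reached the wild-type range, and the difference was 1.07-fold lower (adjusted p = 0.0368). The adjusted p of BLM ran from 0.000446 to 0.157 with each library left out, missing the threshold without wild-type rescue library 2 or 3 or mutant rescue library 1 or 3.

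Among the partner ratios, BLM to RMI1 was 0.668, 0.665 and 0.633 in the mutant rescue, against 0.785, 0.755 and 0.785 in the wild-type rescue, a change of -15.5% in the mean. The MUS81 to EME1 ratio was 7.33, 6.76 and 7.34 in the mutant rescue, against 6.07, 6.40 and 6.93 in the wild-type rescue, and these overlapped (exact two-sided permutation p = 0.2). The BRCA2 to PALB2 ratio was 1.76, 1.66 and 1.71 in the mutant rescue, against 1.58, 1.47 and 1.58 in the wild-type rescue, a change of 10.9% in the mean. Of the 8 ratios, 7 did not overlap between groups and each of these had an exact p of 0.1, the smallest possible. The levels of 72.4% of all tested genes did not overlap either. The share among ratios of other gene pairs was not computed, so this count does not set the partner pairs apart. No ratio changed its direction when any library was left out.

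**Figure D3:**
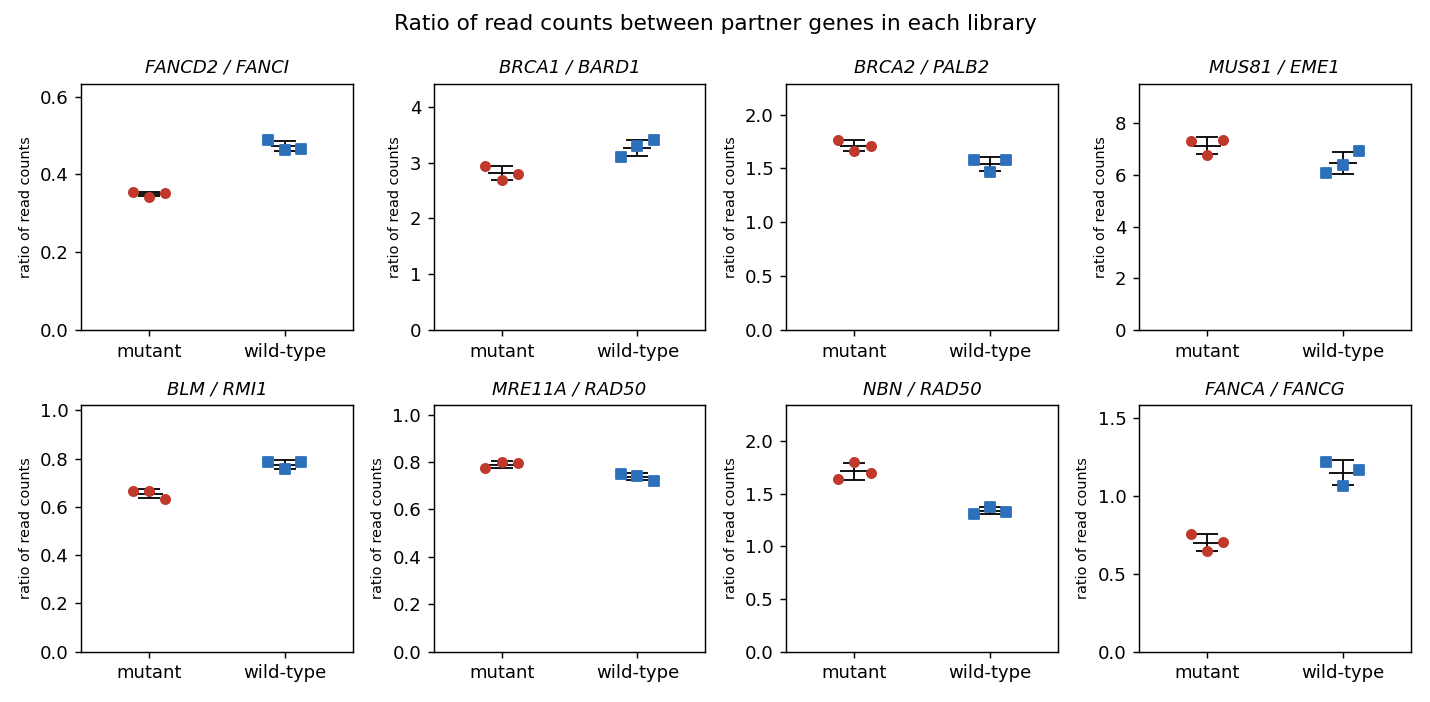
Ratio of read counts within 8 pairs of partner proteins in each library, with mutant rescue circles left of wild-type rescue squares and black marks for the group mean with its SD. FANCD2 to FANCI and FANCA to FANCG are lower in all 3 mutant libraries, NBN to RAD50 is higher in all 3, and MUS81 to EME1 overlaps.

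Levels of different genes were compared as CPM per kilobase of the longest annotated transcript, a scale that ignores which isoforms were used. FANCI had the highest level among the 29 genes in the mutant rescue at 81.5, and was the second in the wild-type rescue at 68.4. RBBP8 was the second in the mutant rescue at 70.9 and the first in the wild-type rescue at 73.5. FANCG was the third in the mutant rescue at 49.9, against 41.5 in the wild-type rescue. XRCC3 was at 39.9 in the mutant rescue and 51.2 in the wild-type rescue, the third there. RAD54L was the member whose place differed most, at rank 4 with 43.7 in the mutant rescue and rank 11 with 23.0 in the wild-type rescue. BRCA2 was the lowest in both, at 4.30 in the mutant rescue and 4.52 in the wild-type rescue. FANCB and FANCM were next to it, with FANCB at 4.83 and FANCM at 5.91 in the mutant rescue, and FANCB at 5.58 and FANCM at 4.94 in the wild-type rescue. In CPM, 21 of the 29 members were above the median of the tested genes.

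A further list of 59 genes of the same pathways was examined, of which 57 were tested and SLX1A and SLX1B had no reads. In the mutant rescue 21 of the 57 were higher and 12 were lower, and 24 were not called, with a median log2 fold change of 0.07. Across all tested genes 70.1% were called, with 35.4% higher and 34.8% lower. The 3 genes of the FANCD2 ubiquitin cycle that were listed were all higher. USP1, which removes ubiquitin from FANCD2, averaged 485 ± 24.3 CPM in the mutant rescue and 335 ± 13.0 CPM in the wild-type rescue (SD, n = 3 each), 1.45-fold higher (adjusted p = 1.1e-10). UBE2T, the conjugating enzyme that works with FANCL, averaged 104 ± 2.14 CPM in the mutant rescue and 90.3 ± 1.45 CPM in the wild-type rescue, 1.15-fold higher (adjusted p = 4.53e-05).

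RAD51AP1, a cofactor of strand invasion that helps capture the intact duplex, was the most raised of the list at 152 ± 3.63 CPM in the mutant rescue and 79.9 ± 1.59 CPM in the wild-type rescue. That is 1.91-fold (log2 0.93, SE 0.035, adjusted p = 2.64e-15), close to the fold of RAD54L. The resolvase GEN1 averaged 157 ± 7.97 CPM in the mutant rescue and 96.3 ± 2.90 CPM in the wild-type rescue, 1.63-fold higher (adjusted p = 1.35e-12). The damage-marking histone H2AFX was 1.83-fold higher (adjusted p = 8.25e-06), and MAD2L2, of the shieldin and translesion complexes, was 1.56-fold higher (adjusted p = 1.95e-11). The crosslink nuclease DCLRE1B was 1.44-fold higher (adjusted p = 2.05e-09) and the nuclease scaffold SLX4 was 1.17-fold higher (adjusted p = 0.000176). ERCC4, a subunit of the nuclease that unhooks crosslinks, averaged 46.1 ± 3.82 CPM in the mutant rescue and 43.0 ± 2.18 CPM in the wild-type rescue and was not called (adjusted p = 0.118).

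The lower genes of that list included proteins that hold BRCA1 at damaged chromatin. BRE, a subunit of the BRCA1-A complex, averaged 28.4 ± 1.75 CPM in the mutant rescue and 41.4 ± 1.19 CPM in the wild-type rescue, 1.46-fold lower (adjusted p = 8.31e-09). FAM175A, the scaffold of the same complex, was 1.36-fold lower (adjusted p = 3.44e-05). MDC1, the reader of phosphorylated H2AX, averaged 246 ± 4.93 CPM in the mutant rescue and 307 ± 6.15 CPM in the wild-type rescue, 1.25-fold lower (adjusted p = 1.18e-08). FAN1, a nuclease recruited by ubiquitinated FANCD2, was 1.39-fold lower (adjusted p = 4.35e-08). RECQL5, a helicase that limits recombination, was 1.40-fold lower (adjusted p = 2.96e-07). SWSAP1, listed in the table under C19orf39 and a factor that favours recombination, was 1.38-fold lower at a low level, 5.62 ± 0.721 CPM in the mutant rescue and 7.76 ± 0.274 CPM in the wild-type rescue (adjusted p = 0.000443). The BRCA1-A and chromatin group as a whole had 3 genes higher, 4 lower and 2 not called.

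Cell-cycle genes differed in the same libraries, mostly in opposite directions by phase. Of 25 DNA replication genes, 2 were higher in the mutant rescue and 16 were lower, with a median log2 fold change of -0.14. MCM4, a subunit of the replicative helicase, averaged 464 ± 9.26 CPM in the mutant rescue and 764 ± 8.59 CPM in the wild-type rescue (SD, n = 3 each), with a log2 fold change of -0.72 (adjusted p = 8.04e-15). MCM6, of the same helicase, had a log2 fold change of -0.74 (adjusted p = 3.63e-14). Of 25 mitotic genes, 21 were higher and 1 was lower, with a median log2 fold change of 0.37. For both lists the share over all tested genes was 70.1% called, with 35.4% higher and 34.8% lower. The checkpoint kinase BUB1 averaged 581 ± 24.5 CPM in the mutant rescue and 287 ± 6.89 CPM in the wild-type rescue, a log2 fold change of 1.02 (adjusted p = 3.95e-16). The centromere histone CENPA had a log2 fold change of 1.08 (adjusted p = 6.36e-16). Their part in the differences of the repair genes was not tested.

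**Figure D4:**
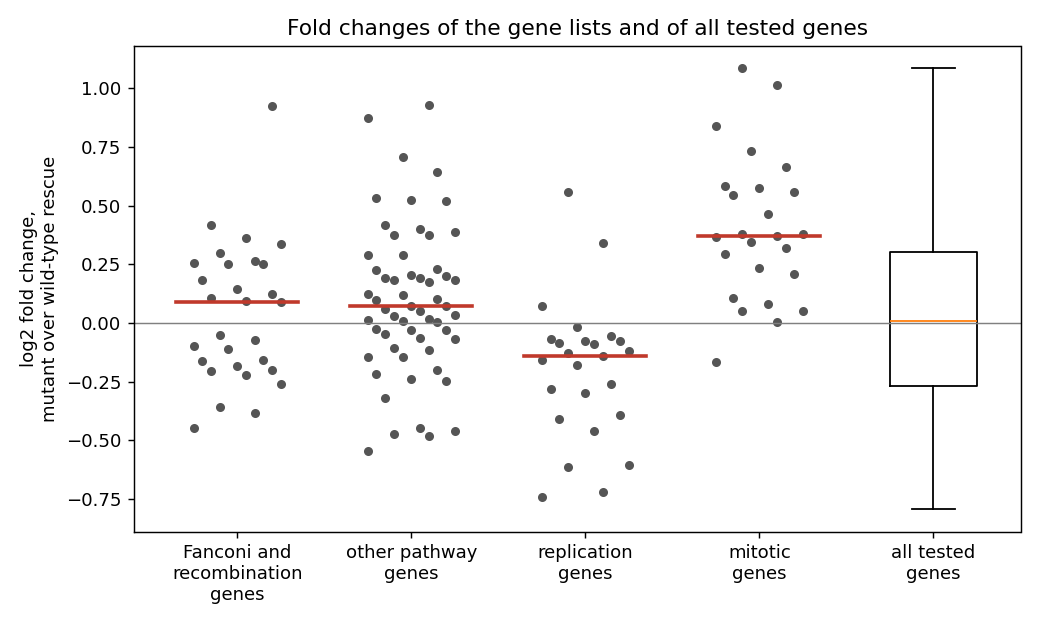
Log2 fold changes, mutant over wild-type rescue, with 1 point per tested gene and a line at the median for each of 4 lists, beside a box for all tested genes with whiskers at their 5th and 95th percentiles. The members centre at 0.09, the other pathway genes at 0.07, the replication genes at -0.14, the mitotic genes at 0.37 and all tested genes at 0.01.

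Many members share their start region or part of their span with another gene, and the strand setting of the counting is not given in the sources used here, so reads in shared stretches are uncertain. In the GENCODE annotation, 26 such pairs had the neighbour in the table. In 6 pairs both genes were called in the same direction, in 7 they were called in opposite directions, and in 13 at least 1 of them was not called or not tested. ERC1, which starts next to RAD52 on the other strand, averaged 7377 reads in the mutant rescue and 3783 in the wild-type rescue (log2 fold change 0.97, adjusted p = 6.31e-15), and RAD52 was higher too. KLC1, which overlaps XRCC3, was lower like it (log2 fold change -0.27, adjusted p = 8.52e-08), and so was VRK2, which overlaps FANCL (log2 fold change -0.47, adjusted p = 4.98e-08). CFL1, which overlaps MUS81 on the other strand, averaged 50070 reads in the mutant rescue and 48070 in the wild-type rescue, far more than MUS81. It was called higher, as MUS81 was (log2 fold change 0.07, adjusted p = 0.0274). LRRC41, which overlaps RAD54L, went against it with 813.7 reads in the mutant rescue and 974.7 in the wild-type rescue (log2 fold change -0.25, adjusted p = 0.000265). CIDECP, a pseudogene beside the start of FANCD2, also went against its neighbour with 210.7 reads in the mutant rescue and 104 in the wild-type rescue (log2 fold change 1.01, adjusted p = 2.64e-08). ANKRD49, opposite MRE11A, was higher (log2 fold change 0.35, adjusted p = 6.88e-07) where MRE11A was lower. ZNF276, which overlaps FANCA, was not called (log2 fold change 0.18, adjusted p = 0.176).

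Library 2 of each group stood a little apart from the other two, and this touched single members. It was the lowest of its group in both rescues for FANCA, XRCC3 and MUS81, and the highest in both for 9 members. For 7 members it lay at opposite extremes in the mutant and wild-type rescues, and the other 10 members showed none of these patterns. With library 2 of both groups left out, 12 members were higher and 12 were lower, and 8870 of all 12495 genes tested there were called. FANCA, XRCC3 and MUS81 kept their calls. BARD1 (adjusted p = 0.0544), RAD51C (adjusted p = 0.166) and FANCB (adjusted p = 0.0716) then missed the threshold, and RBBP8 passed it, lower (adjusted p = 0.0197). With each library's trends of level on GC content and transcript length removed, 11 members were higher and 14 were lower, a split that differs from the 14 and 12 above. Of all 12406 tested genes 9045 were then called. The step also took out each library's mean deviation from the gene averages, which can shift all genes together. Across all tested genes the median log2 fold change was then -0.04, against 0.01 without that step. Of all called genes 44.2% were then higher, against 50.4% without that step. BARD1, NBN and RAD51C were then no longer called (adjusted p = 0.546 for BARD1, 0.603 for NBN and 0.0621 for RAD51C), while BRCA2 (log2 fold change -0.16, adjusted p = 0.000315) and RBBP8 (log2 fold change -0.10, adjusted p = 0.00345) were called lower. RAD54L, RAD52, FANCC, FANCA and XRCC2 kept their direction and their pass at 0.05 there, with log2 fold changes of 0.90 for RAD54L, 0.38 for RAD52, 0.31 for FANCC, -0.52 for FANCA and -0.45 for XRCC2.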

How the data were processed

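RNA was extracted with Trizol from OCI-LY1 cells and made into Illumina TruSeq libraries, per the labels' protocols. The submitters' processing notes name CASAVA 1.8.2, STAR, edgeR and the hg19 build; how reads were assigned to genes, on which annotation and with which strand setting, is not stated there. What the authors deposited is 1 table of raw counts by gene symbol for 6 libraries (3 mutant rescue, 3 wild-type rescue). The 29 members, the gene lists, the tests and the rule for named genes were chosen with earlier results of these data known. Named were all members, the 6 most raised and 6 most lowered called genes of the other pathway list with a mean of at least 50 reads, UBE2T, USP1, SLX4 and ERCC4 of that list, the 2 genes with the smallest p in each cell-cycle list, BCL6, and neighbours; 1 further fixed gene is not reported here.

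Counts were filtered with filterByExpr, scaled by TMM and fitted over all genes with edgeR 4.0.16 (quasi-likelihood, Benjamini-Hochberg over 12406 genes, threshold 0.05) in R 4.3.3. Changes beyond 1.2-fold were tested with glmTreat. Ratios of partner genes were compared by an exact two-sided permutation test. CPM values are TMM-scaled, means are given with SD over 3 libraries, and 3 reads, the floor of detection, equal 0.109 to 0.114 CPM. The alternatives were other scalings, DESeq2 1.42.0, limma-voom 3.58.1, other filters, a replicate block, each library left out, and, chosen after seeing the data, both libraries 2 left out and GC and length trends removed. Transcript lengths and neighbours came from GENCODE v29, matched by symbol; start sequences are RefSeq's on GRCh38.p14, so no coordinate was carried over from hg19. The libraries of each group differed from each other by more than counting noise, and none was counted as a repeat.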

Additional observations from a re-analysis of the deposited data

How the results depend on the processing

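No member reversed its direction in any of the 18 alternatives run, and RAD54L, RAD52, FANCC, FANCA and XRCC2 kept their call in all 18. When a change of more than 1.2-fold was asked for, 4585 of all tested genes, 3 members higher and 2 lower, 12 other pathway genes higher and 6 lower, and 7 replication genes lower then passed, because that test asks for a minimum size. With GC and length trends removed, 19 other pathway genes were lower, against 12 without that step. All tested genes shifted the same way, with 44.2% of the called ones higher, against 50.4% without that step. That step also took out each library's mean deviation, and how much of the shift came from this was not tested. With each library left out in turn, 11 to 14 members were higher and 10 to 13 were lower, and 8099 to 8916 of all tested genes were called. Of the 26 called members, 19 passed with every single library left out. ERCC4, not called at an adjusted p of 0.118, ran from 0.0146 to 0.51 with each library left out and was called higher with a replicate block (adjusted p = 0.0298). By DESeq2, BARD1, RAD51C, RAD54B, NBN, BLM and EME1 did not pass, with adjusted p-values up to 0.0707, and FANCF was called higher only without composition scaling (log2 fold change 0.11, adjusted p = 0.037). Deviations of libraries with the same number correlated at 0.136, 0.172 and -0.055 for numbers 1, 2 and 3, and libraries 1 and 2 of the mutant rescue, but not library 3, correlated best with their own number; the labels name no pairing, and the numbers were not treated as pairs. With a replicate block, 14 members were higher and 12 were lower, 24 other pathway genes were higher and 15 lower, and 9285 of all tested genes were called, against 8702 without it. Limits: 3 libraries of each kind from 1 cell line, no library without a rescue, differences mostly under 1.3-fold, BCL6 itself lower in the mutant rescue, and reads of overlapping genes or pseudogene copies that cannot be assigned with certainty.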
